A study of Mus musculus with 15 samples.

Results

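The intermediate filament genes Nefl, Nefm, Nefh, Ina, Prph, Vim and Nes were followed in cortical interneurons over postnatal life. They were chosen by name, by taking every probe set annotated to 1 of these 7 symbols alone. They are 7 of 18193 genes on the array, and 17 of the 34945 probe sets that name a single gene. Expression had been measured on 15 whole-genome arrays, in 5 age groups of 3 mice each: postnatal day (P) 7, P10, P15, P25 and P40, where P40 covers days 40 to 45. All animals carried the G42 transgene and were otherwise untreated, and every array holds RNA of 23 to 85 GFP-labelled neurons that were picked by hand from dissociated primary somatosensory cortex (S1). In the G42 line GFP is driven from Gad1 regulatory sequence and marks a subset of the parvalbumin class, the fast-spiking basket cells, so these values describe the labelled cells of 1 line. By the labels no other cell type was collected, and the groups were defined by age alone. They also differed in the number of cells picked, from 52 to 85 at P7 and from 23 to 45 at P15.

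Intermediate filaments are rope-like polymers of the cytoskeleton, built from coiled-coil rod proteins that pair side by side. In the axons of mature neurons the main filament is the neurofilament, a copolymer of the light, medium and heavy chains (Nefl, Nefm and Nefh) with alpha-internexin (Ina), and its abundance sets the calibre of an axon. Vim (vimentin) and Nes (nestin) form the filaments of neural progenitors and of several non-neuronal cells, and Prph (peripherin) those of many peripheral neurons. Large and fast-conducting axons are known for their high neurofilament content.

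Array medians ran from 3.21 to 3.46 on the deposited log2 scale, and a value of 5 served as the limit of signal over background. Pvalb, the calcium buffer of this cell class, was at 3.62 ± 0.72 (SD, n = 3) at P7 and 14.28 ± 0.20 at P40, so the youngest arrays carried the label but not the defining transcript. Slc17a7, which marks excitatory neurons, lay between 2.41 and 2.62 on all 15 arrays. For P15 replicates 2 and 3 the mean of the spiked hybridization controls was 2.5 and 2.48, whereas it was no lower than 9.31 on any other array, and results that rest on this pair are also given without it. The beta-actin 3′ minus 5′ difference, a sign of RNA length, was 5.77 ± 0.98 at P7 and 3.93 ± 0.55 at P40. Precision is limited by how few arrays there are.

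The 3 chains of the neurofilament triplet rose between P7 and P40. On the brightest probe set of each, the largest fitted log2 step between neighbouring ages lay between P7 and P10, where Nefm started from background. Alpha-internexin had strong signal at every age, and whether its rise was called depended on the probe set. Vimentin had signal at P7 alone, while nestin and peripherin had none at any age. Of the 7 genes, 5 exceeded the limit of 5 on at least 3 arrays and were tested, and 2 (Prph and Nes) were not. By limma's moderated test with adjustment over all 9663 genes tested, 3 were called higher at P40 than at P7, 1 (Vim) lower and 1 (Ina) was not called at an adjusted p under 0.05. The background is large, since 45.2% of all genes tested were called in this comparison, 27.5% higher and 17.6% lower. Vim passed the limit only through its P7 arrays, so it had to differ, and the count over the tested genes is a description. Among probe sets fitted on their own, 7 of the 8 that passed the limit were called, against 41.9% of 15381. The Vim probe set is 1 of these 7 and also passed only through P7.

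Nefl encodes the light chain, on which the other chains assemble. Its brighter probe set, 1426255_at, read 8.01, 8.73 and 9.73 on the P7 arrays and 11.03, 11.27 and 11.57 at P10. It read 12.74, 11.79 and 12.28 at P15, 12.26, 12.34 and 12.17 at P25, and 12.55, 11.69 and 12.09 at P40. All arrays from P10 on lay above all P7 arrays, and the 3 oldest groups overlapped one another. Such separation is common with 3 arrays per age: P7 and P40 did not overlap for 55.7% of all genes tested. The share for other pairs of ages was not counted, here or for the genes below. On the brighter Nefl probe set the P40 mean was 9.76-fold the P7 mean (log2 difference 3.29, SE 0.36, adjusted p = 5.8e-06), and 257 of the 9663 genes rose more. A second probe set, 1454672_at, gave a larger difference. The P7 arrays read 4.38, 3.46 and 6.05, and the P10 arrays 6.41, 8.09 and 9.54. Later readings were 11.21, 10.14 and 11.35 (P15), 11.22, 11.45 and 11.05 (P25), and 11.78, 10.26 and 11.33 (P40). The P7 and P10 groups did not overlap, and no later array fell below 10.14. Only 1 of its 3 P7 arrays exceeded the limit of 5, so the fitted log2 difference of 6.5 between P7 and P40 (SE 0.72, adjusted p = 1e-05) is taken largely against background and gives no fold. The probe sets of Nefl therefore shared a direction and differed in size, and the mean of both, which carries the same limit, gave 4.89.

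Nefm encodes the medium chain, and Nefl and Nefm are neighbours in the genome with no protein-coding gene between them. Its only probe set, 1422520_at, read 2.77, 4.01 and 4.36 at P7, all at background, and 7.47, 6.74 and 8.40 at P10. It read 9.58, 8.31 and 8.97 at P15, 11.24, 11.28 and 11.24 at P25, and 10.92, 9.94 and 10.06 at P40. The P25 arrays were the highest of all and lay above all 3 P40 arrays. Nefm was at least 39.6-fold higher at P40 than the background limit at P7, with a fitted log2 difference of 6.59 (SE 0.48, adjusted p = 1.3e-07). With values under 5 set to 5 that difference was 5.31.

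Nefh encodes the heavy chain, whose long phosphorylated tail spaces filaments apart. Its probe set, 1424847_at, read 7.54, 7.77 and 8.41 at P7 and 10.14, 10.61 and 11.28 at P10. It read 11.99, 11.74 and 11.53 at P15, 12.39, 12.73 and 12.79 at P25, and 13.03, 12.07 and 12.10 at P40. From P7 to P25 no array of an older group fell below any array of the group before it. The P40 mean was 22.5-fold the P7 mean (log2 difference 4.49, SE 0.32, adjusted p = 1.3e-07), and 101 genes rose more. Within the oldest group replicate 1 was the highest array for Nefl, Nefm and Nefh alike.

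**Figure D1:**
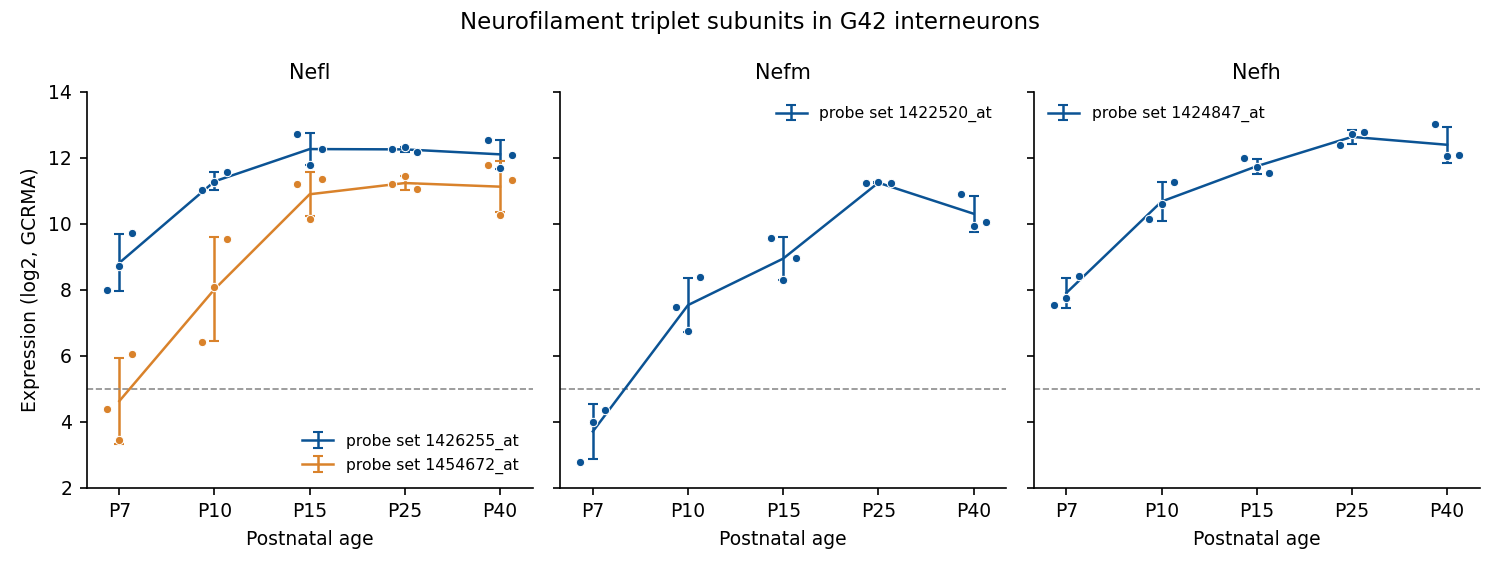
Expression of Nefl (both probe sets), Nefm and Nefh on the log2 scale at 5 ages; points are single arrays, lines join the means of 3 arrays, bars are SD and the dashed line is the limit of 5. Nefm starts below the limit at P7, between 2.77 and 4.36, and all 3 genes climb between P7 and P10, with Nefm and Nefh highest at P25.

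The first interval, P7 to P10, held the largest fitted log2 step of each triplet chain on its brightest probe set. Nefl rose 5.53-fold (log2 difference 2.47, SE 0.36, adjusted p = 0.00096) and Nefh 6.82-fold (2.77, SE 0.32, adjusted p = 0.00016). Nefm was at least 5.82-fold higher at P10 (3.83, SE 0.48, adjusted p = 0.00028). Its P7 arrays lay at background, so only that bound is a measured size, beside 4.93-fold between P15 and P25. In all, 4 of the 5 tested genes were called in this step, 3 higher and Vim lower, whereas 3.6% of all genes tested were called (2.37% higher and 1.23% lower). Vim was tested only because its P7 arrays exceeded 5, so its fall was set by the filter and adds nothing to that count. The second probe set of Nefl also rose, by a log2 difference of 3.39 (adjusted p = 0.023), where 1.85% of single probe sets did. Its P7 replicates 1 and 2 read 4.38 and 3.46, under the limit of 5. Whether this step exceeded its log2 difference of 2.89 between P10 and P15 is therefore not settled. Neighbouring steps share an age group, so their estimates are not independent.

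On the brightest probe sets later steps were smaller and less certain. Between P10 and P15, 1 of the 5 was called, Nefh (2.11-fold, log2 difference 1.08, SE 0.32, adjusted p = 0.044), against 11.4% of all genes in either direction and 8.57% higher. That call was lost under 21 of 28 other settings, among them the omission of any P15 or P25 array, of P7 replicate 2, of P10 replicate 1 or 2, and of P40 replicate 2 or 3. With single arrays left out the difference ran between 0.81 and 1.38. Nefl and Nefm had log2 differences of 0.98 (adjusted p = 0.086) and 1.41 (adjusted p = 0.065) in this step, while the second Nefl probe set rose by 2.89 (adjusted p = 0.027), as 7.52% of single probe sets did. Between P15 and P25, 1 of the 5 was called, Nefm (4.93-fold, log2 difference 2.30, SE 0.48, adjusted p = 0.014), against 4.86% of all genes in either direction and 2.37% higher. Its call was lost without P15 replicate 2 (1.98), P15 replicate 3 (2.31), P25 replicate 2 (2.29), or both P15 arrays with low spiked controls (1.67, adjusted p = 0.34). Nefh differed by 0.88 in this step (adjusted p = 0.14). Between P25 and P40 limma called 0 of the 5, against 0.673% of all genes, and 1 (Ina) had an unadjusted p under 0.05. For Nefm the log2 difference was -0.94 (95% confidence interval -1.96 to 0.07, adjusted p = 0.49), and for Nefh it was -0.24 (95% confidence interval -0.93 to 0.45). By the moderated F test for any difference between ages 4 of the 5 were called, against 47.2% of all genes, and Ina was not (adjusted p = 0.17). Vim is 1 of these 4, and its call too was set by the filter.

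Other measures moved with age beside the triplet. The 10 markers of parvalbumin interneurons, as the log2 of their summed linear signal, ran from 15.08 to 15.55 at P7 and from 16.9 to 17.0 at P40. Of the 9 that were tested, 7 were called higher at P40 and 2 lower, against 27.5% and 17.6% of all genes tested. The excitatory neuron list had 6 of its 10 measured markers at or under 5 on all arrays, and its summed level ran from 10.13 to 11.44 at P7 and from 10.80 to 11.28 at P40. The 12 markers of other interneuron classes summed to 13.18 to 14.38 at P7 and 13.45 to 14.62 at P40. Crh, the brightest of them, was at 10.67 ± 1.17 (SD, n = 3) at P7 and 9.85 ± 4.24 at P40. The 8 measured oligodendrocyte markers had their highest sum at P25, from 11.03 to 12.21, against 10.76 to 11.09 at P7 and 8.99 to 9.95 at P40, with Mbp at 11.21 ± 0.63 (SD, n = 3) at P25. Cnp, the brightest of them over the 15 arrays, was instead highest at P7. It was at 10.75 ± 0.23 at P7, 9.79 ± 0.67 at P25 and 9.10 ± 0.54 at P40. Nefm and Nefh had their highest means at P25, and the part of oligodendrocyte RNA in their values was not tested. Adjusted for the actin 3′ to 5′ measure in the model, the P40 minus P7 differences were 3.90 for Nefl, 7.18 for Nefm and 4.76 for Nefh, each larger than without it. With the number of cells picked as a covariate they were 3.49, 6.58 and 4.35. In RNA pooled from many cells, a change in the share of picked cells that express a gene cannot be told apart from a change per cell.

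Ina encodes alpha-internexin, which precedes the triplet in developing neurons and joins it in the adult central nervous system. Its brightest probe set, 1448991_a_at, read 11.71, 12.04 and 12.60 at P7 and 12.58, 12.57 and 12.53 at P40, and lay between 11.71 and 12.60 on all 15 arrays. The P7 and P40 arrays overlapped, and the log2 difference was 0.44 (95% confidence interval -0.01 to 0.89, adjusted p = 0.099). Without P7 replicate 3 it was 0.68 and was called (adjusted p = 0.013), and it was also called with cells picked as a covariate (0.68). The other probe sets of Ina gave calls. Probe set 1418178_at read 11.24, 11.35 and 11.05 at P7 and 11.92, 11.92 and 12.14 at P40 (log2 difference 0.78, SE 0.20, adjusted p = 0.0066). Probe set 1448992_at read 9.41, 9.49 and 9.65 at P7 and 11.33, 10.78 and 11.04 at P40 (log2 difference 1.53, SE 0.25, adjusted p = 0.00027). On neither did the P7 and P40 arrays overlap, as was so for 55.7% of all genes tested. The mean of the 3 probe sets differed by 0.92 (adjusted p = 0.00088). All 3 had lower means at P25 than at P15 and P40, with P25 replicate 2 the lowest P25 array of each, and on the brightest probe set the P25 to P40 log2 difference was 0.48 (adjusted p = 0.39). Ina thus had signal far above the limit at P7, when Nefm had none, and its largest estimate of change, 2.89-fold, was below the smallest estimate for a triplet chain, 9.76-fold.

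Vim encodes vimentin, the filament protein of radial glia, astrocytes and vascular cells, which newborn neurons also carry briefly. Probe set 1438118_x_at read 7.18, 6.39 and 5.86 at P7 and 4.55, 4.14 and 4.38 at P10. The later arrays lay between 3.50 and 4.36. Only the P7 arrays exceeded 5. Vim was at least 2.78-fold lower at P10 and at P40 than at P7, with fitted log2 differences of -2.12 (SE 0.37, adjusted p = 0.004) and -2.76 (SE 0.37, adjusted p = 3.3e-05). The P40 difference was -1.21 when the Vim probe sets were averaged and -1.48 with values under 5 set to 5, and both were called. Because Vim was tested only through its P7 arrays, a fall from P7 was set by the filter. These calls and p-values therefore describe the fall and do not test it. The suffix of this probe set marks probes that may also match other transcripts. The other 2 Vim probe sets stayed under 5 on all arrays: 1456292_a_at read 3.57, 4.27 and 3.53 at P7 and between 3.09 and 3.42 later, and 1450641_at read 2.51, 2.42 and 2.86 at P7 and at most 2.5 later.

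Markers of cells that carry vimentin were read on the same arrays. Of 15 markers of endothelial and mural cells, 14 stayed at or under 5 on all arrays, among them Cldn5 (2.36 to 2.51) and Pdgfrb (3.02 to 3.50), and the summed level ran from 6.90 to 7.10 at P7 and from 6.63 to 6.70 at P40. All 6 fibroblast markers stayed there too, with sums from 5.64 to 5.99 at P7 and from 5.47 to 5.51 at P40, and Col1a1 was at most 2.76. Of 11 astrocyte markers, 2 stayed at background throughout, among them Gfap (at most 2.80), and the sums ran from 8.63 to 10.85 at P7, from 10.27 to 10.98 at P10 and from 9.06 to 10.53 at P40. Aqp4 was at 2.66 ± 0.04 (SD, n = 3) at P7 and at 4.48 ± 1.61 at P10, and Slc1a3 at 4.88 ± 1.61 and 5.60 ± 1.71. Slc4a4, a bicarbonate transporter, was the brightest gene of the list, at 9.34 ± 1.26 at P7, 9.38 ± 0.83 at P10 and 9.52 ± 0.67 at P40, and the P7 and P10 sums overlapped. Of 10 microglia markers, 8 stayed at background, with Cx3cr1 at most 4.92, but their sum was highest at P7 (6.89 to 7.70 against 6.45 to 6.59 at P40), and C1qb read 5.39 ± 0.85 at P7. The 9 measured markers of progenitors and cycling cells summed to 11.01 to 12 at P7 and 10.29 to 10.52 at P40. Sox2 made up most of that sum, at 11.29 ± 0.59 at P7 and 10.35 ± 0.12 at P40 (adjusted p = 0.038), while Mki67 was at most 3.29. The part of astrocyte, microglia and progenitor RNA in the Vim values was not tested.

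Nes and Prph gave no signal. The brightest of the 3 Nes probe sets, 1418289_at, ran from 3.50 to 4.30 over the 15 arrays, and the other pair reached 3.34 and 2.25. The brightest of the 4 Prph probe sets, 1420256_x_at, ran from 3.90 to 4.53, and the others reached 2.60, 2.08 and 1.58. The value of 2.60 was 1 array, P25 replicate 2, on probe set 1449797_x_at, where the other 14 lay between 1.64 and 1.69. Values at this level have no order, so nestin and peripherin transcripts were not detectable at any age.

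**Figure D2:**
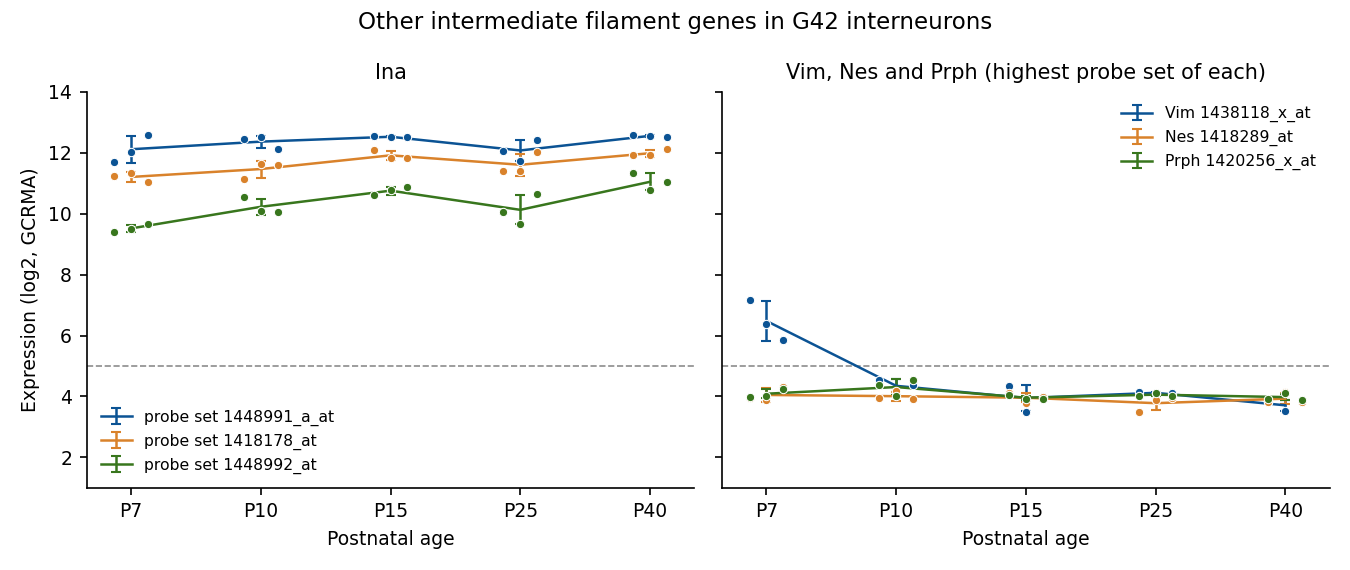
Expression of Ina (left, its 3 probe sets) and of the brightest probe set of Vim, Nes and Prph (right) on the log2 scale at 5 ages; points are single arrays, lines join the means of 3 arrays, bars are SD and the dashed line is the limit of 5. Ina lies above 9 on all arrays, Vim exceeds the limit at P7 alone, and Nes and Prph stay below it.

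Whether the chains changed in proportion was asked within arrays, from the log2 difference between a pair of genes, which compares changes and not levels. The 6 arrays of P7 and P10 were set against the 6 of P25 and P40 with an exact two-sided permutation test for 6 pairs of genes, whose smallest possible p is 0.0022. Nefm gained on Nefh by 1.93 (from -3.66 ± 0.78 to -1.74 ± 0.41, SD, n = 6 each, exact p = 0.0022, adjusted p = 0.0026 over the 6 pairs), and all 6 late arrays lay above all 6 early ones. The 3 P7 values of Nefm are at background, and with values under 5 set to 5 the gain was 1.28 (exact p = 0.0022). Nefm and Nefh had 1 probe set each, and the exact p does not measure how far probe sets of a gene differ. For Nefl the 2 probe sets gave log2 differences of 3.29 and 6.5 between P7 and P40. Whether other probe sets would give the gain of Nefm on Nefh was not tested. All 3 chains gained on Ina, Nefl by 2.05 on its brighter probe set (exact p = 0.0043), Nefh by 3.15 (exact p = 0.0022) and Nefm by 5.08, or 4.43 with values under 5 set to 5 (exact p = 0.0022 for both). The gain of Nefl on Ina was 3.08 with the mean of the probe sets (exact p = 0.0043). On the second Nefl probe set it was 4.78, or 4.42 with values under 5 set to 5 (exact p = 0.0022 for both).

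The comparisons of Nefm and Nefh with Nefl also depended on the probe set read for Nefl. Against the brighter probe set Nefm gained 3.03 (from -4.43 ± 0.89 to -1.40 ± 0.46, SD, n = 6 each, exact p = 0.0022), or 2.38 with values under 5 set to 5. With the mean of the Nefl probe sets the gain was 1.66 (exact p = 0.0043), and against the second probe set alone it was 0.29 (exact p = 0.59). Nefh gained 1.10 on the brighter probe set (from -0.76 ± 0.37 to 0.34 ± 0.22, exact p = 0.0022), but the change was -0.27 with the mean (exact p = 0.24) and -1.63 on the second probe set (exact p = 0.0043). The order of Nefl relative to the other chains is therefore not settled by these arrays.

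Age by age, the Nefm minus Nefh difference was -4.19 ± 0.52 (SD, n = 3) at P7, where Nefm is at background, and -3.14 ± 0.64, -2.80 ± 0.55, -1.38 ± 0.21 and -2.09 ± 0.05 at the 4 later ages in order. It was highest at P25. P7 against P40 alone cannot reach a p under 0.10, and gave 2.10, or 0.82 with values under 5 set to 5.

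**Figure D3:**
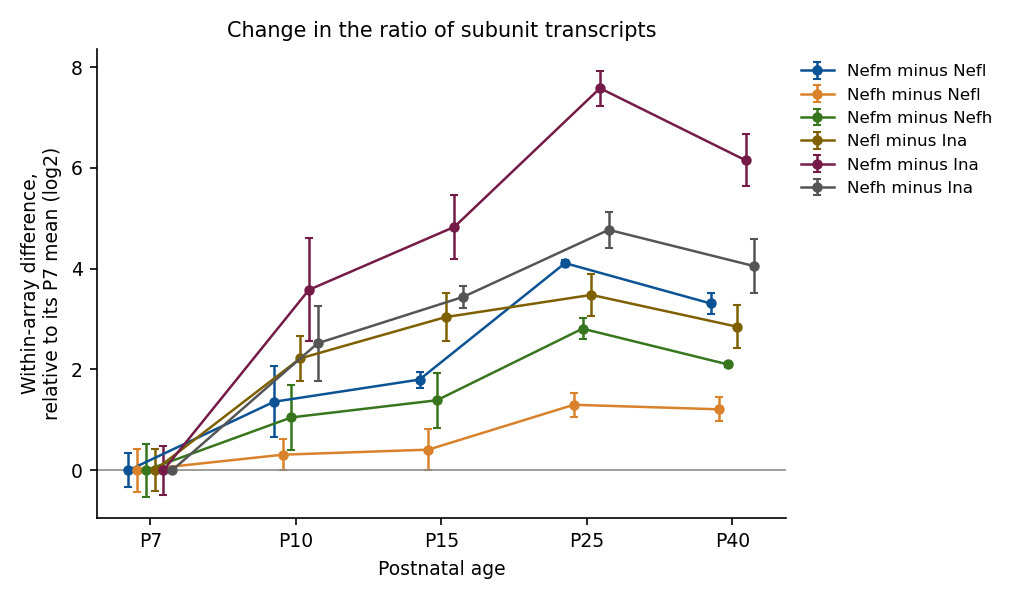
Within-array log2 difference between pairs of Nefl, Nefm, Nefh and Ina at 5 ages, each relative to its own P7 mean; points are means of 3 arrays and bars are SD. Nefm minus Ina climbs furthest and Nefh minus Nefl least, and all 6 differences are highest at P25. Nefl is read from its brighter probe set, and the P7 values of Nefm are at background.

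The genes whose profile over the 15 arrays was most like each member were listed by Pearson's r, as a description, since all profiles share the arrays and the order of ages. The profiles of Nefm and Nefh were the most alike among members (r = 0.981), followed by Nefl with Nefh (0.960) and Nefl with Nefm (0.937). For Nefh the 3 nearest of 9663 genes were Prss23, a secreted serine protease (0.986), Kcna1, the Kv1.1 potassium channel (0.984), and Laptm4b, a lysosomal membrane protein (0.982), and 236 genes had r over 0.9. For Nefm they were Nefh, Fmn1, an actin-nucleating formin (0.970), and Nat8l, the N-acetylaspartate synthase (0.970), with 205 genes over 0.9, but without P7 replicate 1, or with values under 5 set to 5, only 1 of these 3 stayed among its 10 nearest. For Nefl they were Nefh, Prss23 (0.959) and Avpi1 (0.952), with 66 over 0.9. Ina had only Ppargc1b, a coactivator of mitochondrial genes, above 0.9 (0.905), followed by Pdcd6ip (0.860) and Ptpre (0.841), and with the mean of the Ina probe sets 0 of these 3 stayed among its 10 nearest and with equal array medians 1. For Vim they were Vcan, a matrix proteoglycan (0.965), Ndrg1 (0.958) and Dnah7a (0.957), each with signal over 5 on average at P7 alone.

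The counts in the 6 lists of related genes stand beside 27.5% of all genes tested called higher between P7 and P40 and 17.6% called lower. Of 28 other intermediate filament genes, most of them keratins, 7 had signal, of which 3 rose between P7 and P40, 3 fell and 1 stayed uncalled, with a median log2 difference of 0.08 against 0.18 over all genes tested. Iffo1, a nuclear filament family member, rose 8.26-fold (log2 difference 3.05, or 1.91 averaged over its probe sets, adjusted p = 2e-05), and Krt222, a truncated keratin-like gene, rose 3.53-fold from an already high 9.62 ± 0.44 (SD, n = 3) to 11.43 ± 0.21 (adjusted p = 0.00023). Krt12, known as the keratin of the corneal epithelium, fell 8.17-fold from 8.47 ± 0.14 to 5.44 ± 1.22 (adjusted p = 0.00028), and its difference of -3.03 was -2.33 without P40 replicate 3 and -1.57 averaged over its probe sets. The other Krt12 probe set did not pass the limit, so its signal rests on a single probe set and that average is taken partly over background. The nuclear lamin Lmnb1 fell 2.68-fold (adjusted p = 0.00049). Among 8 linkers, chaperones and turnover genes with signal, 4 rose and 0 fell, with a median difference of 0.60. The P40 level of Bag3, a co-chaperone of Hsp70, was at least 6.81-fold its P7 level (adjusted p = 9.7e-05), and the plakophilin Pkp4 rose 3.32-fold (adjusted p = 1.2e-06).

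Most kinases and phosphatases that act on neurofilament tails did not pass the test on their brightest probe set. Of 16 tested, 3 rose, 1 fell and 12 did not pass, with a median difference of 0.37, in all 4 of 16 called against 45.2% of all genes. Without P7 replicate 2 only 1 was higher and with the 3′ minus 5′ covariate 0 were, while 4 were lower without P7 replicate 1, after quantile normalization or under array weights, and 5 once array medians were made equal. Some genes that did not pass had another probe set called higher: Mapk9 (1.30), Prkaca (1.93), Ppp2ca (1.38) and Ppp2r1a (1.00). Gsk3b had others called lower (-0.94, -0.93 and -1.85), and Mapk8 had others called in both directions. The Gsk3b difference of -1.85 lies within background, with means of 4.69 at P7 and 2.84 at P40. All genes named for another probe set were chosen after their values were seen. Cdk5, a kinase of the tail repeats, rose 2.10-fold (adjusted p = 0.021), but its log2 difference of 1.07 was no longer called when P7 replicate 2 (0.88), P7 replicate 3 (0.97) or P40 replicate 2 (0.75) was omitted, or with the 3′ minus 5′ covariate (0.21). A second Cdk5 probe set was higher by 1.58 (adjusted p = 0.008), and the mean of the Cdk5 probe sets by 0.86 (adjusted p = 0.012). The Cdk5 activator Cdk5r1 fell 2.13-fold (adjusted p = 0.00029). Mapk10, the neuronal Jun kinase, rose 1.48-fold (adjusted p = 0.0013), a call lost with the 3′ minus 5′ covariate (adjusted p = 0.051). A second Mapk10 probe set was higher by 1.98 on the log2 scale (adjusted p = 0.00023). Of 11 motor genes that carry neurofilaments along axons, 7 rose, 0 fell and 4 did not pass, with a median difference of 0.58. The dynein light intermediate chain Dync1li2 rose 3.00-fold (log2 difference 1.59, or 0.91 averaged over its probe sets, adjusted p = 0.0002) and Myo5a, an actin motor that binds neurofilaments, rose 4.08-fold (adjusted p = 0.00062). With equal array medians 4 motors were higher and 1 lower, 3 were higher with the mean of the probe sets or with cells picked as a covariate, and 2 with the 3′ minus 5′ covariate.

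Microtubule genes divided by member. Of 10 tubulins tested 2 rose and 5 fell, under quantile normalization and equal array medians too, with a median difference of 0.00. Tuba8 went from 4.05 ± 1.15 (SD, n = 3) to 10.07 ± 0.15 (adjusted p = 2.7e-07) and Tuba4a rose 2.02-fold (adjusted p = 7.2e-06). Tubb2b, a tubulin of young neurons, fell 9.58-fold (adjusted p = 7.5e-07), and Tubb5 fell 3.77-fold (adjusted p = 1.3e-07) or by 3.09 on the log2 scale when its probe sets were averaged. Of 18 microtubule-associated protein genes, 5 rose, 4 fell and 9 did not pass, with a median difference of -0.21, and 8 were lower under either of those scalings. Map7d2 rose 4.50-fold (adjusted p = 7.8e-06) and Map1a, of mature axons and dendrites, 2.64-fold (adjusted p = 0.00034). Mapt, which encodes tau, fell 2.65-fold (adjusted p = 0.00039). Map6 fell by 4.32 on the log2 scale on its brighter probe set (adjusted p = 2.4e-05) and rose by 1.71 on the other (adjusted p = 0.0054). Over the 6 lists, 24 of 70 genes tested were higher and 13 lower, so 64.9% of calls were higher, and that share was 50% after quantile normalization and 46.3% once array medians were made equal. The same share over all genes was 61%, 51.5% and 49.4%, and the median difference over all genes was 0.18, 0.01 and -0.04.

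**Figure D4:**
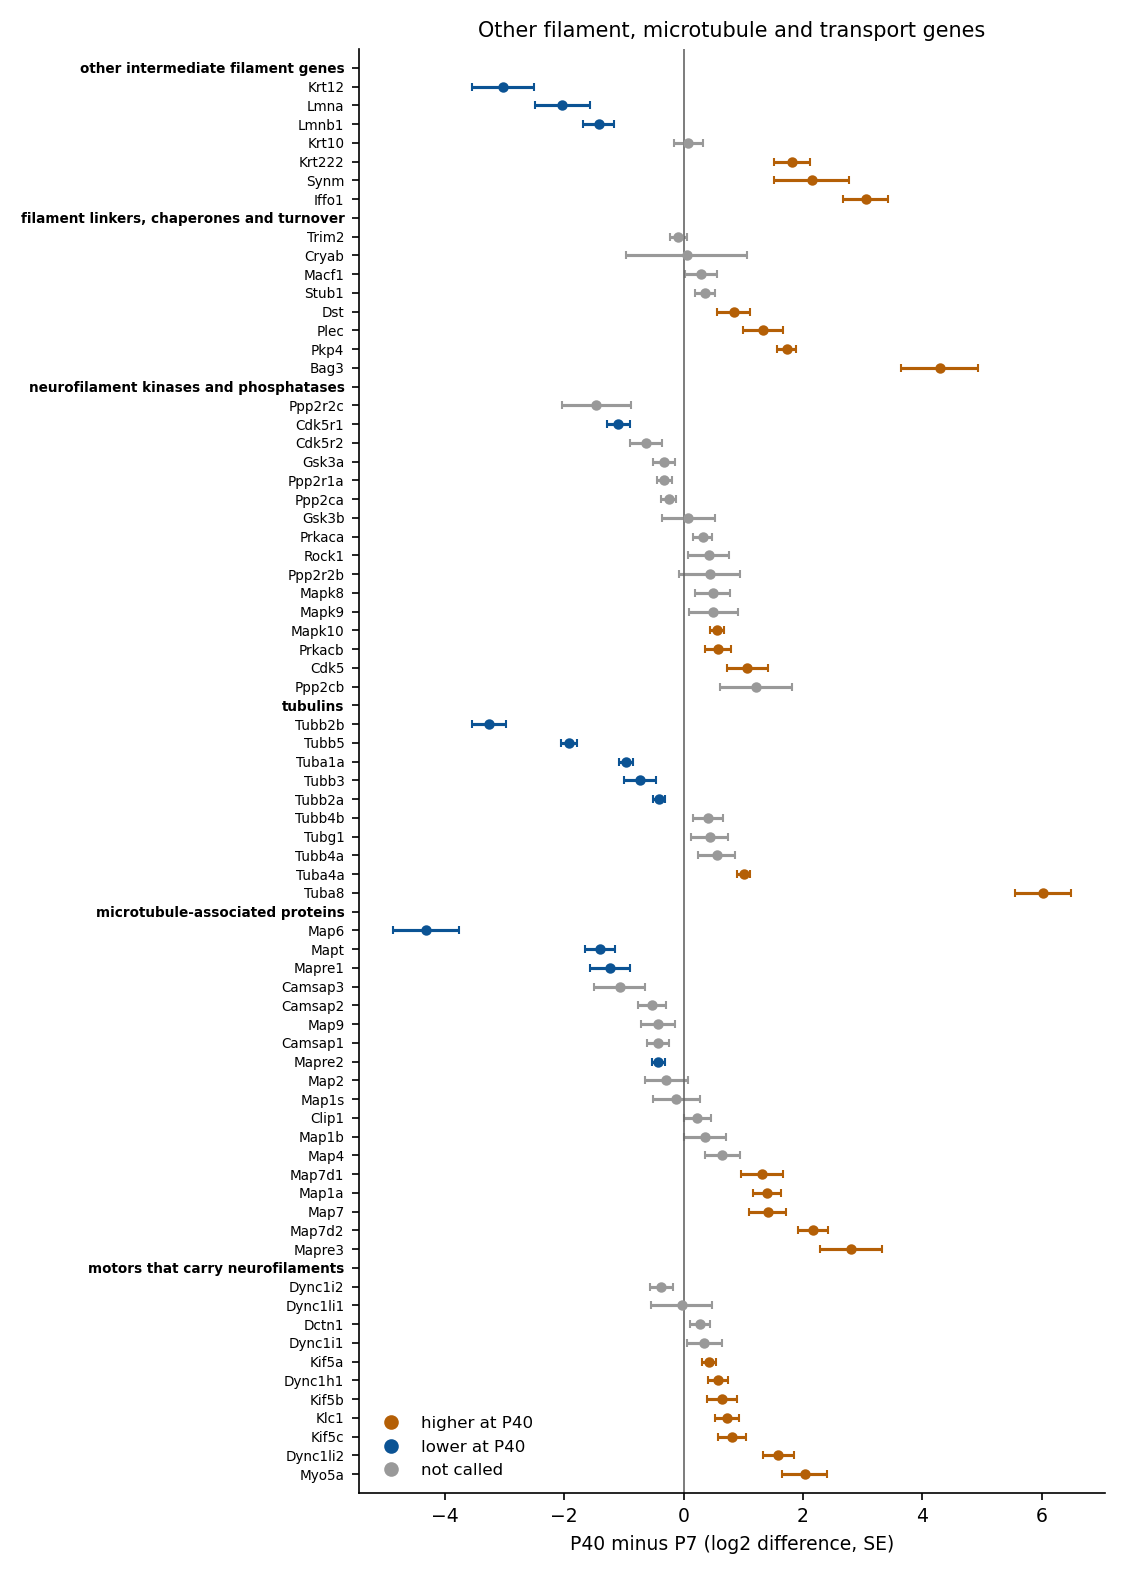
P40 minus P7 log2 difference, with its SE, of the 70 tested genes in 6 lists of filament, microtubule and transport genes; orange marks genes called higher at P40, blue those called lower and grey those not called. Tuba8 lies furthest to the right and Map6 furthest to the left.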

How the data were processed

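The deposited values are log2 expression, 1 value per probe set and array on Affymetrix whole-genome mouse arrays, and the authors used GCRMA to make them, per the submitters' processing notes. Its version is not given in the sources used here. RNA of 0.3 to 1 ng went through 2 rounds of amplification, per the labels' protocols. Of 45101 probe sets, 34945 named 1 gene, 932 several and 9160 none, and 64 were controls. Those with 1 gene were used. A gene was read from its probe set with the highest mean over 15 arrays and tested if that exceeded 5 on at least 3 arrays, which kept 9663 of 18193 genes.

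A model with 1 mean per age was fitted in limma 3.58.1 (R 4.3.3) over all 15 arrays, with moderated variances with a trend, two-sided tests and Benjamini-Hochberg adjustment over the 9663 genes. The same model was fitted to 15381 single probe sets. Every SE is the moderated one, and ± marks the SD. Folds need means over 5 at both ages, and if no array of an age exceeded 5 the fold is a bound taken against 5. Pairs of genes were compared with scipy 1.17.1. Of 211 listed symbols, 200 were on the array under 1 gene. The members, lists and tests were chosen with earlier results of these data known. Named genes are the members, in each related list the 2 called genes of smallest adjusted p in each direction, the 3 nearest by r, and set markers. The fit was tested on simulated data. Each array came from a different animal, and same-numbered arrays did not deviate together (median correlation -0.11, -0.05 and -0.06 for replicates 1, 2 and 3).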

Additional observations from a re-analysis of the deposited data

How the results depend on the processing

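In all, 70 results were recomputed under up to 33 other settings, and 1816 of 1947 values kept their direction and their side of the threshold. The count of members called for P40 minus P7 was 4 and ran from 4 to 5 when single arrays were left out, that for P10 minus P7 stayed at 4, and both were 3 with a filter at 7, which leaves Vim untested. For P15 minus P10 the count was 1. It was 0 with the replicate block, quantile normalization, equal array medians, no filter, no trend, either covariate, or without P15 replicates 2 and 3, 2 with values under 5 set to 5, 3 with array weights, and 0 to 3 with single arrays left out. For P25 minus P15 the count of 1 was 3 with array weights, 0 without P15 replicates 2 and 3, and 0 to 1 with single arrays left out. For P40 minus P25 it was 0, and 1 with array weights. The replicate block changed no other count of calls among members by over 1.5 times, and 2 of 15 arrays correlated best with their own number. Of the related genes, 13 were lower, and 21, 22 and 29 were with quantile normalization, equal array medians and no filter, while 24 were higher, and 14 with the 3′ minus 5′ covariate. P7 against P40 alone, where the exact p cannot fall under 0.1, gave 3.31 for Nefm minus Nefl, 1.21 for Nefh minus Nefl, 2.10 for Nefm minus Nefh, and 2.84, 6.15 and 4.05 for Nefl, Nefm and Nefh minus Ina. With values under 5 set to 5 as well, the 3 that involve Nefm were 2.02, 0.82 and 4.87 in that order, and the others 1.21, 2.84 and 4.05. Nefh minus Nefl was -0.27 with the mean of the probe sets, -1.63 with Nefl from its second probe set and -1.27 with values under 5 set to 5 in addition, and Nefm minus Nefl was 0.29 and 0.01 in the last 2 settings. The settings for pairs that floor values at 5 or use the second Nefl probe set were chosen after seeing the data. The cause of these shifts was not tested. Low signal limits Prph, Nes, Vim after P7 and Nefm at P7, which lie at background.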

Other observations

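Among the related genes, 44 had 2 or more tested probe sets, and 2 of these had probe sets called in both directions between P7 and P40. They were Map6, described above, and Mapk8, whose probe sets gave log2 differences of -2.18 (adjusted p = 0.00046), 0.49 (adjusted p = 0.19) and 3.31 (adjusted p = 0.014) in limma's fit over single probe sets. The Mapk8 probe set with 3.31 was near the limit at P7 (5.28 ± 0.56) and scattered widely at P40 (8.60 ± 2.91). Trim2, a ubiquitin ligase that binds the neurofilament light chain, was not called on its brightest probe set (-0.09, adjusted p = 0.64), but 2 others were higher at P40, by 1.01 (adjusted p = 0.02) and 2.28 (adjusted p = 0.00073). Mapk8 and Trim2 were chosen after their values were seen.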
